A study of Mus musculus with 8 samples.

Results

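The genes described here are 8 genes of cholesterol synthesis and its control, namely Hmgcs1, Idi1, Fdft1, Sqle, Lss, Cyp51, Dhcr7 and Insig1. They were taken by gene name from the probes of 1-colour Agilent mouse arrays and make up 8 of the 37074 gene names on the array. The arrays carry 14 probes for them, and 13 of these passed the filter on dim probes, which asks that in at least 1 group both arrays exceed background clearly. Of these genes 7 encode enzymes of the pathway and Insig1 encodes its sterol-dependent brake, so no gene of cholesterol uptake is among them. Genes of uptake and transport are therefore counted as a separate list.

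RNA came from CD4+ T cells isolated from C57BL/6 mice on day 4 after immunisation. Every mouse, controls included, had been given CD4+ T cells carrying a transgenic receptor for ovalbumin (OVA), followed by dendritic cells loaded with OVA peptide. The 4 groups were tumour-free mice given a control antibody, mice bearing the OVA-expressing fibrosarcoma MCA205 (MCA205-OVA) given a control antibody, tumour-free mice given an antibody against the interleukin-6 receptor (anti-IL-6R), and tumour-bearing mice given anti-IL-6R. Each group had 2 arrays, which per the series' design text came from independent experiments. The labels do not tie arrays of different groups to the same experiment. The p-values measure only the spread between the arrays within groups. An experiment shared by several groups, if there was one, could therefore not be modelled. The sources used here do not give the antibody dose, the mice per sample or the purity of the isolates.

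Cells make cholesterol from acetyl-CoA through mevalonate, isoprenoid units and squalene, which is closed into lanosterol and trimmed to cholesterol. The genes of the pathway are switched on together by the transcription factor SREBP-2, which the escort protein SCAP carries to the Golgi for cleavage when membrane sterols are low and which Insig proteins hold back in the endoplasmic reticulum when sterols are plentiful. Activated T cells are known to raise the pathway, since dividing cells need sterol for new membrane.

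Upstream windows of 5 of the genes are shown because the genes are textbook SREBP-2 targets and their levels are compared together below. The windows come from the RefSeq promoter table of build GRCm38.p6, which holds 8 promoter entries for 6 of the 8 genes, and run 5′ to 3′ on the gene's strand up to the base before the annotated start. Capitals mark matches, on either strand, to the sterol regulatory element (SRE) TCACNCCAC, its looser forms CACNCCAC and ATCACNNCA, the NF-Y box CCAAT and the Sp1 box GGGCGG. The first looser form lies within the SRE. Sqle and Fdft1 are not shown.
Hmgcs1, chr13:119690101-119690350, plus strand: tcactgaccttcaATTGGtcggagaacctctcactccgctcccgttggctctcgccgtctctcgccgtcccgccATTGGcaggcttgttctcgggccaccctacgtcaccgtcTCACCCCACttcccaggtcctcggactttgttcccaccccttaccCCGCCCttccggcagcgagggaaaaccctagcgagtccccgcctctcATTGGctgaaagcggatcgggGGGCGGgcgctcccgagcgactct
Idi1, chr13:8885506-8885605, plus strand: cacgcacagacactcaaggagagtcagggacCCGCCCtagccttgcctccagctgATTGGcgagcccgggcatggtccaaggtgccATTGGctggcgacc
Lss, chr10:76531430-76531604, plus strand: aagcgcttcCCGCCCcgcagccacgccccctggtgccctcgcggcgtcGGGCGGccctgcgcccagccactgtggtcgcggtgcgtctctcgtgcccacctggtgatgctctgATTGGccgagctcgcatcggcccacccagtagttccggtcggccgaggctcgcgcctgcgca
Cyp51, chr5:4104698-4104847, minus strand: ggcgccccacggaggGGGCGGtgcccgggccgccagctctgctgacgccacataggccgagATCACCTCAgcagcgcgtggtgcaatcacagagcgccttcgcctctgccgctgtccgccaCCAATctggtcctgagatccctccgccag
Insig1, chr5:28071162-28071411, plus strand: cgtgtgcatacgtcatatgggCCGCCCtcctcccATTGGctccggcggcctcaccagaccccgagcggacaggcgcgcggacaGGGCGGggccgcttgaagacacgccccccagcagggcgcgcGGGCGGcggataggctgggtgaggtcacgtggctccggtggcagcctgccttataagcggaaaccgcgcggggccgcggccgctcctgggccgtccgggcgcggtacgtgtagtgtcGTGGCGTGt

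Among the 6 genes with an entry, Hmgcs1 alone held the SRE, starting 137 bases before the annotated start (position -137). Cyp51 held the second looser form at -89 and Insig1 held the first at -9, on the opposite strand. An NF-Y box was found in 6 of the 8 entries and an Sp1 box in 7, and each of the 6 genes had both in at least 1 entry. Over all 32851 promoters of the table, which are of the same length (250 bases before and 50 after the start), 1.24% held the SRE, 6.24% its first looser form, 2.77% the second, 37.4% an NF-Y box and 35.7% an Sp1 box. These matches describe letters in a window and not bound sites.

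**Figure D1:**
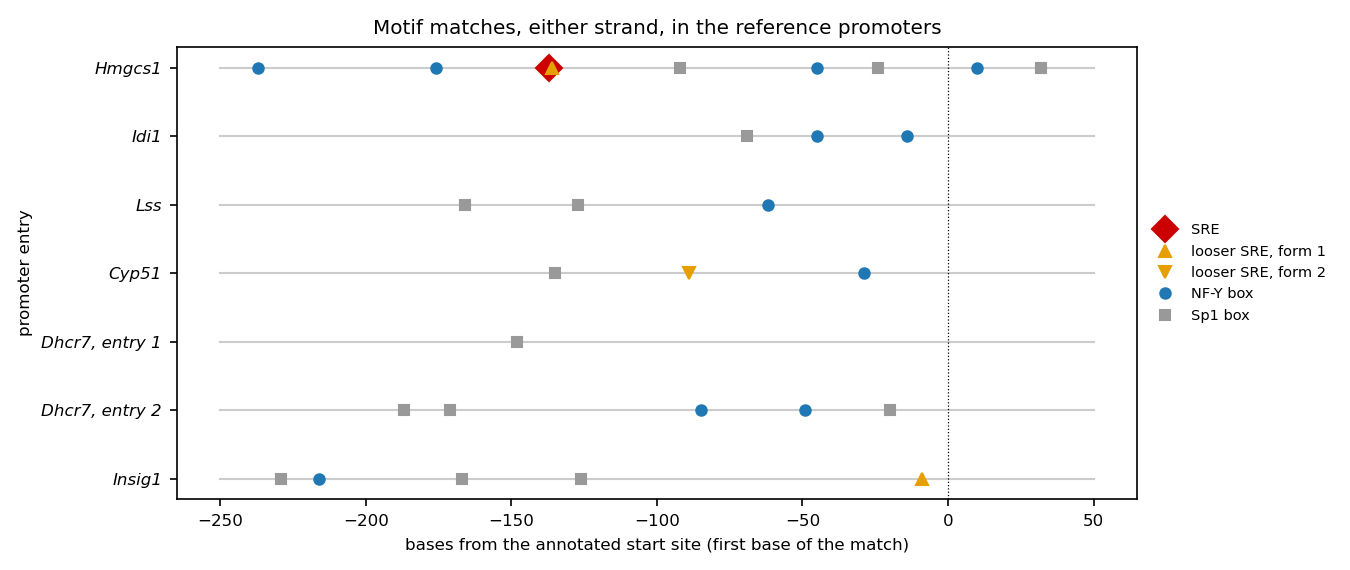
Positions of motif matches in the promoter entries of 6 of the 8 genes, as bases from the annotated start site (x axis, first base of each match on either strand); each grey line is 1 entry, and the Dhcr7 entry without a match is not drawn. The SRE appears only on the Hmgcs1 line, at -137, while each of the 6 genes has an NF-Y box and an Sp1 box.

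Levels are log2 of the scanner signal minus the log2 of the array's 75th percentile, so a level of 0 equals that percentile, and a difference of -1 would mean 50% less signal. The levels of different probes are not comparable with each other. Each value is given by array in the order of the label numbers, which run from 1 to 8 over the 4 groups and pair no samples. Probe positions are those of the array design in build mm9, which has no gene annotation here. Differences carry their standard error (SE, n = 2 arrays per group) and an adjusted p from limma's moderated test, corrected with Benjamini-Hochberg over all 32039 probes tested. Between 53.1% and 59.8% of probes per array were well above background, and no spot was saturated.

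On average the 8 genes were lowest in tumour-bearing mice given anti-IL-6R. By brightest probe, 6 of the 8 genes (Hmgcs1, Idi1, Fdft1, Sqle, Lss and Cyp51) had both arrays of this group below the other 6. Over the 13 probes this held for 8, against 6.88% of all probes tested. Dhcr7 and Insig1 did not show this order, nor did the dimmest probes of Hmgcs1, Lss and Cyp51. The level averaged over the brightest probes, each centred on its own mean, was -0.16 and -0.28 on the tumour-bearing anti-IL-6R arrays. On the other 6 it was between -0.04 and 0.16. The other 3 groups overlapped on this average. Only Sqle passed the test, and only between the antibodies in tumour-bearing mice.

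**Figure D2:**
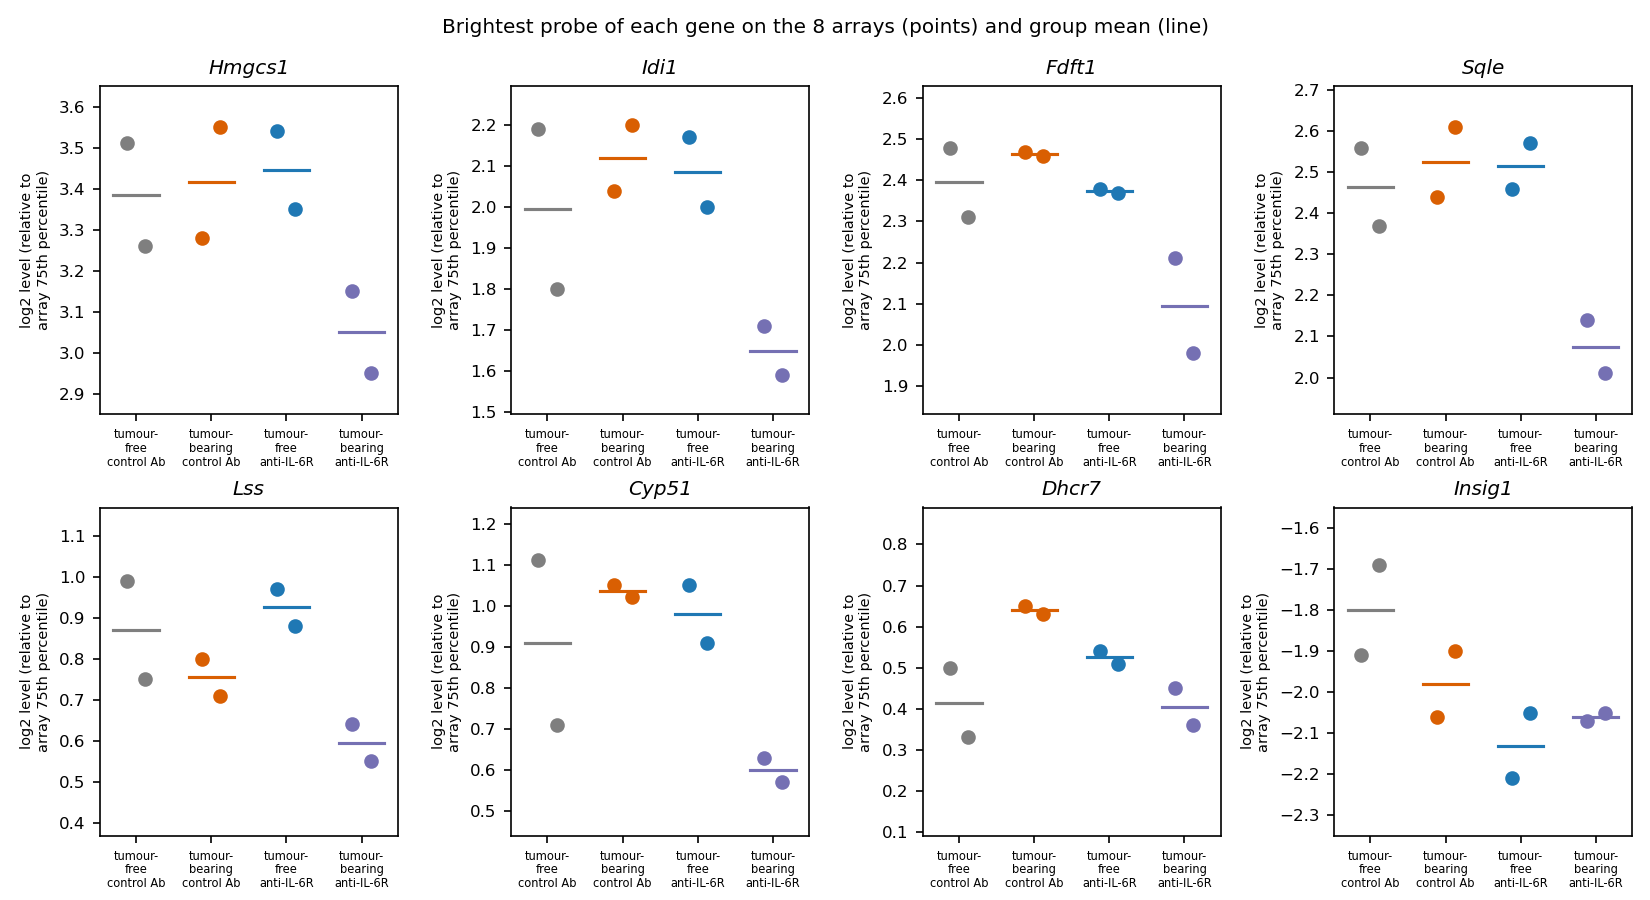
Log2 level of the brightest probe of each of the 8 genes relative to the array's 75th percentile (y axis, each panel 0.8 log2 units high) in the 4 groups (x axis); points are arrays and lines are means of 2 arrays. In Hmgcs1, Idi1, Fdft1, Sqle, Lss and Cyp51 both purple points (tumour-bearing, anti-IL-6R) lie below all others; in Dhcr7 and Insig1 they do not.

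Hmgcs1 encodes the cytosolic synthase that makes HMG-CoA, the step before mevalonate. Its brighter probe (A_55_P2032966, on the unplaced sequence chr13_random, bases 114793 to 114852, minus strand) measured 3.51 and 3.26 in tumour-free mice with control antibody, 3.28 and 3.55 in tumour-bearing mice with control antibody, 3.54 and 3.35 in tumour-free mice with anti-IL-6R, and 3.15 and 2.95 in tumour-bearing mice with anti-IL-6R. The last pair was the lowest, and the other 3 groups overlapped. In tumour-bearing mice the antibody groups differed by -0.36 ± 0.13 (95% interval -0.66 to -0.06, adjusted p = 0.12), which did not pass the test. A second Hmgcs1 probe, designed on a separate cDNA, gave -0.32 ± 0.24 (adjusted p = 0.42).

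Idi1 encodes the isomerase that interconverts the isoprenoid units built from mevalonate. Under control antibody its single probe (A_55_P2028961, chr13:8891524-8891583, plus strand) measured 2.19 and 1.80 without a tumour and 2.04 and 2.20 with one. Under anti-IL-6R it measured 2.17 and 2.00 without a tumour and 1.71 and 1.59 with one. The tumour-bearing anti-IL-6R arrays lay lowest, and the second tumour-free control array was nearer to them than to its partner. Idi1 had the lowest estimate of the 8 genes in tumour-bearing mice, -0.47 ± 0.13 (95% interval -0.77 to -0.16), and missed the threshold (adjusted p = 0.074).

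Fdft1 encodes squalene synthase, which commits the pathway to sterols. The brighter of its 2 probes (A_66_P111208, chr14:63765457-63765516, minus strand) measured 2.48 and 2.31 without and 2.47 and 2.46 with a tumour under control antibody. Under anti-IL-6R the levels were 2.38 and 2.37 without and 2.21 and 1.98 with a tumour. The tumour-bearing anti-IL-6R arrays again stood below all others but differed from each other by more than the tumour-bearing control pair did. The difference between the antibodies in tumour-bearing mice was -0.37 ± 0.10 (adjusted p = 0.065), and the second probe gave -0.34 ± 0.10 (adjusted p = 0.087).

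The second Fdft1 probe and the dimmer Cyp51 probe are shown because each spans more genome than its own 60 bases. A probe across an exon junction would do so, but this was not checked against a gene annotation. In the design's build, mm9, the 60 bases of the Fdft1 probe span 4241 bases of genome and those of the Cyp51 probe 407.
Fdft1 A_55_P2033250, chr14:63765750-63769990, minus strand: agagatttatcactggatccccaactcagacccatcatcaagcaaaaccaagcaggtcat
Cyp51 A_51_P485791, chr5:4092033-4092439, minus strand: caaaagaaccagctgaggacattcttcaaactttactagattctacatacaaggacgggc

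Sqle encodes squalene epoxidase, a rate-limiting oxygen-dependent enzyme of the sterol branch. Its bright probe (A_55_P1975185, chr15:59162688-59162747, plus strand) measured 2.56 and 2.37 without and 2.44 and 2.61 with a tumour under control antibody. The anti-IL-6R arrays measured 2.46 and 2.57 without and 2.14 and 2.01 with a tumour. The 6 arrays of the other groups shared 1 range, and the tumour-bearing anti-IL-6R arrays lay below it. In tumour-bearing mice Sqle fell by 26.7% with anti-IL-6R, a log2 difference of -0.45 ± 0.10 (95% interval -0.68 to -0.22, adjusted p = 0.049). The call sits at the threshold: over 18 alternatives the adjusted p ranged from 0.039 to 0.28, and 6 of them kept it. It was lost on leaving out any 1 of the 8 arrays, on quantile normalization, without the filter on dim probes, without the intensity trend in the variance model, and when only the 4 arrays compared were fitted. The other Sqle probe, annotated to a different transcript, was not above background on any array and was not tested.

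Lss encodes lanosterol synthase, which closes the sterol rings. The brightest of its 3 probes (A_55_P2807240, chr10:76016592-76016651, plus strand) measured 0.99 and 0.75 without and 0.80 and 0.71 with a tumour under control antibody, and 0.97 and 0.88 without and 0.64 and 0.55 with a tumour under anti-IL-6R. Here the tumour-bearing control arrays were also toward the low end, and the antibody difference in tumour-bearing mice was -0.16 ± 0.11 (adjusted p = 0.36). The other 2 Lss probes differed in sign, at -0.30 ± 0.10 (adjusted p = 0.11) and 0.07 ± 0.26 (adjusted p = 0.89).

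Cyp51 encodes lanosterol 14-alpha-demethylase, the first enzyme to trim lanosterol. Its brighter probe (A_55_P2792294, chr5:4082122-4082181, minus strand) measured 1.11 and 0.71 without and 1.05 and 1.02 with a tumour under control antibody. In the anti-IL-6R groups it measured 1.05 and 0.91 without and 0.63 and 0.57 with a tumour. The tumour-free control arrays were the widest pair of any group for this probe, and the lower of them came close to the tumour-bearing anti-IL-6R arrays. The antibody difference in tumour-bearing mice was -0.43 ± 0.13 (adjusted p = 0.084), and the dimmer probe gave -0.32 ± 0.18 (adjusted p = 0.28).

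Dhcr7 encodes the reductase of the last step to cholesterol. Its probe (A_55_P2022337, chr7:151033874-151033933, plus strand) measured 0.50 and 0.33 without and 0.65 and 0.63 with a tumour under control antibody, and 0.54 and 0.51 without and 0.45 and 0.36 with a tumour under anti-IL-6R. Dhcr7 differed in order from the enzymes above: both tumour-bearing control arrays lay above all others, and the lowest single array was a tumour-free control. By group means it differed less. Its lowest mean was still in tumour-bearing mice with anti-IL-6R (0.40), and Idi1, Fdft1 and Cyp51 also had their highest mean in tumour-bearing controls. The antibody difference in tumour-bearing mice was -0.24 ± 0.09 (adjusted p = 0.15), and the tumour difference under control antibody was 0.22 ± 0.09 (adjusted p = 0.19).

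Insig1 encodes the endoplasmic reticulum protein that retains SCAP, and it is itself a target of SREBP-2. Its probe (A_51_P290207, chr5:28404246-28404305, plus strand) measured -1.91 and -1.69 without and -2.06 and -1.90 with a tumour under control antibody, and -2.21 and -2.05 without and -2.07 and -2.05 with a tumour under anti-IL-6R. Unlike the brightest probes of the enzymes, Insig1 had its lowest group mean in tumour-free mice with anti-IL-6R. That rested on array 5 (-2.21), and the 2 anti-IL-6R groups overlapped, with a tumour difference of 0.07 ± 0.15. The antibody pairs also overlapped in tumour-bearing mice. The antibody difference was -0.33 ± 0.15 in tumour-free mice (adjusted p = 0.62) and -0.08 ± 0.15 in tumour-bearing mice (adjusted p = 0.77).

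The study compared anti-IL-6R with the control antibody in tumour-bearing mice. All 8 genes were lower with anti-IL-6R by their brightest probe, with a median difference of -0.36 against -0.05 over all genes. Of the 13 probes, 12 were below 0 and 1, for Sqle, passed the test, where 4.27% of all probes passed and 2.76% passed as lower. At an unadjusted p under 0.05 the count was 8 of 13 probes, against 27% of all probes. The groups did not overlap, with anti-IL-6R lower, for 11 of 13 probes and 7 of 8 genes, against 34.1% of all probes. A count of 1 in 13 probes past the test is near the background share. Below 0 were 12 of the 13, against 55.8% of all probes. The 13 probes stand for 8 genes on the same arrays, and the genes were chosen with earlier results known. The shared sign is therefore a description and not a test.

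In tumour-free mice the signs were mixed. With anti-IL-6R 2 of the 8 genes were lower and 6 higher, with a median of 0.06 against 0.03 over all genes. Over all 13 probes 7 were below 0. These signs rest on array 2, a tumour-free control, without which 7 of the 8 genes and 12 of the 13 probes were below 0 and the median of the genes was -0.08. None of the 13 probes passed limma's test, where 0.0312% of all probes did, and none had an unadjusted p under 0.05, against 8% of all probes. Sqle differed by 0.05 ± 0.10 (95% interval -0.18 to 0.28), Idi1 by 0.09 ± 0.13 and Cyp51 by 0.07 ± 0.13. The groups did not overlap, with anti-IL-6R lower, for 2 of 13 probes, those of Insig1 and a dimmer Lss probe (16.9% of all probes). They did not overlap with anti-IL-6R higher for that of Dhcr7 (23% of all probes).

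The difference between the hosts in the antibody effect was tested as the interaction of host and antibody. It was below 0 in 7 of 8 genes by their brightest probes, with a median of -0.39 against -0.09 over all genes. The exception was Insig1 (0.25 ± 0.21, adjusted p = 0.50). Over the 13 probes 11 were below 0, with a median of -0.25. The dimmest probes of Hmgcs1, Cyp51 and Lss gave -0.06, -0.18 and 0.08. None of the 13 probes passed limma's test, as did 0.025% of all probes, and 6 of the 13 had an unadjusted p under 0.05 against 23.6% of all probes. Idi1 gave -0.56 ± 0.19 (adjusted p = 0.14), Cyp51 -0.51 ± 0.18 (adjusted p = 0.16) and Sqle -0.50 ± 0.14 (adjusted p = 0.11). The antibody effect on these genes is therefore not shown to differ between tumour-bearing and tumour-free mice.

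Tumour-bearing and tumour-free mice were also compared under each antibody, and these comparisons share arrays with those above. Under control antibody 6 of 8 genes were higher in tumour-bearing mice, with a median of 0.07 against 0.03 over all genes. Without array 2, a tumour-free control, 7 of the 8 genes and 10 of the 13 probes were below 0 (median of the genes -0.07), and without array 4, a tumour-bearing control, 4 genes and 7 probes were. No probe of the 13 passed limma's test, where 5.25% of all probes did, and 1, for Dhcr7, had an unadjusted p under 0.05 against 23.8% of all probes. Dhcr7 was also the only gene whose groups did not overlap, with tumour-bearing mice higher (27.8% of all probes). Sqle differed by 0.06 ± 0.10 (95% interval -0.17 to 0.29) and Hmgcs1 by 0.02 ± 0.13.

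Under anti-IL-6R 7 of 8 genes were lower in tumour-bearing than in tumour-free mice by their brightest probes. Their median was -0.36 against -0.06 over all genes, and 11 of the 13 probes were below 0 (median -0.21). No probe of the 13 passed limma's test, where 0.209% of all probes did, and 6 had an unadjusted p under 0.05 against 7.43% of all probes. Sqle gave -0.44 ± 0.10 (adjusted p = 0.28), Idi1 -0.44 ± 0.13, Hmgcs1 -0.40 ± 0.13 and Lss -0.33 ± 0.11, the last 3 with adjusted p = 0.59. The groups did not overlap, with tumour-bearing mice lower, for 9 of 13 probes, against 31.9% of all probes. By brightest probe this held for 7 of 8 genes. The dimmest probes of Hmgcs1, Lss and Cyp51 overlapped, that of Cyp51 at -0.03 ± 0.18, and so did Insig1. Averaged over both antibodies the tumour effect had a median of -0.14 over the 8 genes, and averaged over both hosts the antibody effect had a median of -0.19. None of the 13 probes passed limma's test in either average, where 0.559% and 0.00936% of all probes did, and at an unadjusted p under 0.05 the counts were 1 and 2, against 7.04% and 8.68% of all probes.

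**Figure D3:**
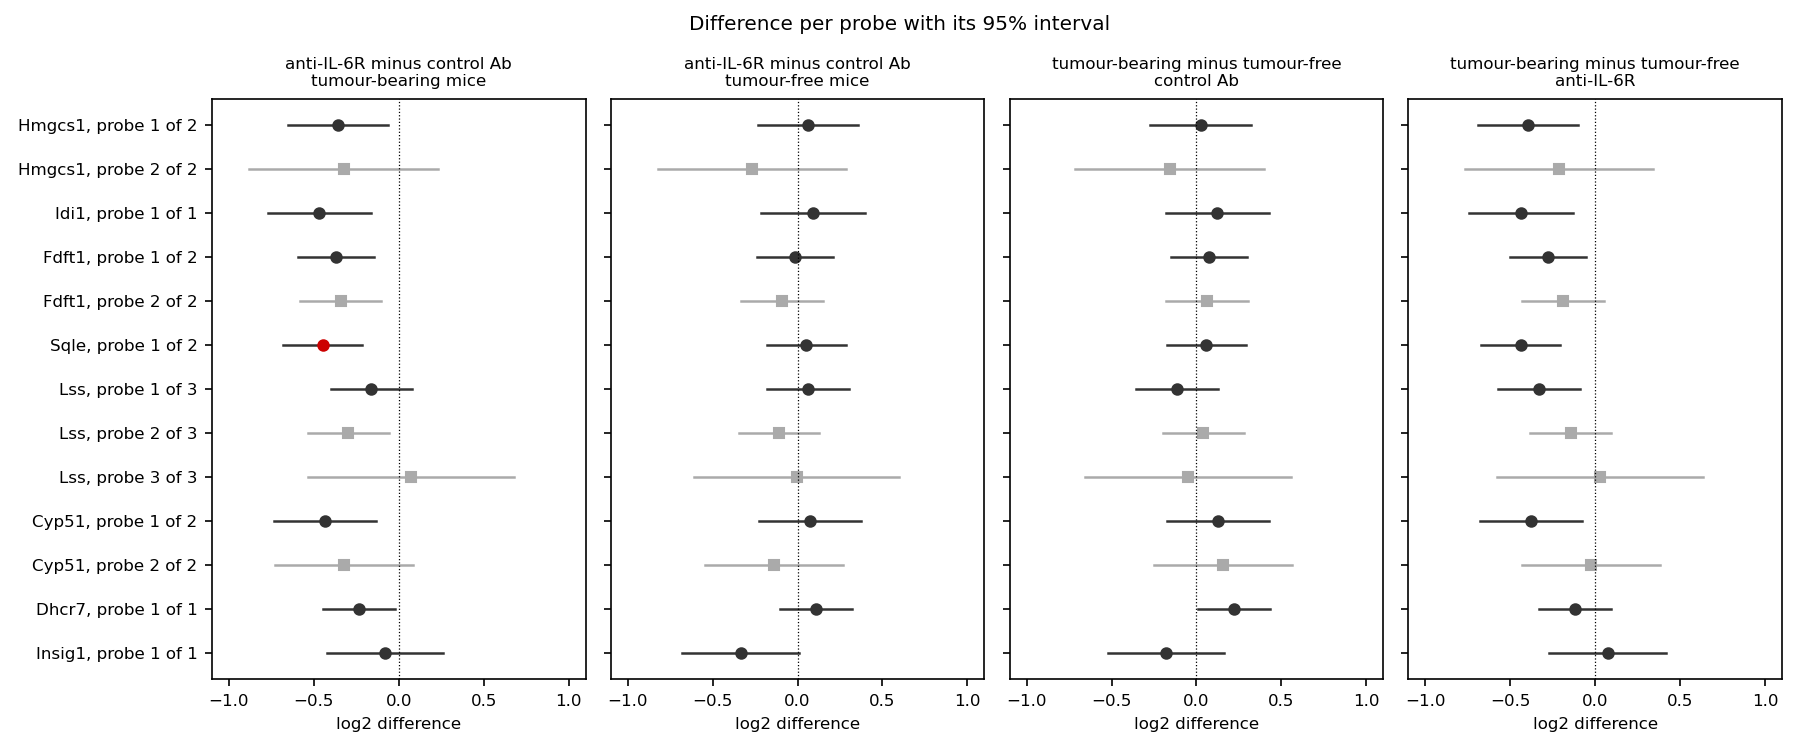
Log2 difference of each of the 13 tested probes (points; black for the brightest probe of a gene, grey for others, red where the adjusted p is under 0.05) with its 95% interval (bars) in 4 comparisons, 1 per panel. Only Sqle in tumour-bearing mice is red, at -0.45; in tumour-free mice every interval includes 0.

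Other enzymes of the pathway were also mostly lower with anti-IL-6R in tumour-bearing mice. Of 14 such genes 13 were measured, and 12 of these were below 0, with a median of -0.36. Pmvk, which encodes phosphomevalonate kinase, measured 2.85 and 2.75 with anti-IL-6R against 3.29 and 3.27 with control antibody. Hsd17b7, whose enzyme reduces the sterol 3-keto group, measured 0.38 and 0.33 against 0.77 and 0.88. Pmvk fell by 0.48 ± 0.08 (adjusted p = 0.029) and Hsd17b7 fell by 0.47 ± 0.09 (adjusted p = 0.035). Their second probes gave -0.44 and -0.46. Mvd, the mevalonate diphosphate decarboxylase gene, gave -0.38 ± 0.10 and Fdps, the farnesyl diphosphate synthase gene, -0.42 ± 0.11 (adjusted p = 0.062 and 0.067).

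Under control antibody Pmvk rose in tumour-bearing mice by 0.36 ± 0.08 (adjusted p = 0.042), the only call among the 13 enzymes, 11 of which were above 0 (median 0.14). In tumour-free mice the antibody difference of the 13 enzymes had a median of 0.03, with 9 above 0 and none past the test.

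Genes of the machinery that processes SREBP had a smaller median difference. All 10 genes of the list were measured, 9 were below 0 in tumour-bearing mice with anti-IL-6R (median -0.13) and none passed the test. Srebf2, which encodes SREBP-2, gave -0.34 ± 0.11 (adjusted p = 0.11), and Mbtps2, the gene of the site-2 protease that frees it, -0.29 ± 0.10 (adjusted p = 0.11). Of the uptake and transport genes 13 of 15 were measured, with a median of 0.00 as the value rounds and none past the test. Stard4, whose product carries sterol between membranes, gave -0.35 ± 0.11 (adjusted p = 0.096).

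Genes of sterol efflux, storage and oxysterol sensing, 12 of 14 measured, had a median of -0.06 in tumour-bearing mice, and none passed. Abca1, the gene of the cholesterol efflux pump, had an estimate of 0.61 ± 0.16 and Soat2, a cholesterol esterification gene, of -0.66 ± 0.19 (adjusted p = 0.06 and 0.079). Among fatty acid synthesis genes, 14 of 16 measured, the median was -0.13 and Scd1, the stearoyl-CoA desaturase gene, was the only call. Scd1 rose by 0.87 ± 0.13 with anti-IL-6R in tumour-bearing mice (adjusted p = 0.027) and fell by 1.14 ± 0.13 in tumour-bearing mice under control antibody (adjusted p = 0.0047). Scd2, Fasn and Acaca gave -0.62, -0.41 and -0.33 in tumour-bearing mice, each just short of the threshold (adjusted p = 0.051, 0.052 and 0.052). In the isoprenoid branches, 13 of 13 measured, the median was -0.11 and Ggps1, the geranylgeranyl diphosphate synthase gene, rose by 0.64 ± 0.14 (adjusted p = 0.047) by its brightest probe, while its other 5 probes gave between -0.12 and 0.02.

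Markers of proliferation and of other cells differed in the same comparisons. All 20 cell cycle genes were lower with anti-IL-6R in tumour-bearing mice (median -0.78) and 13 fell, among them Ccne1 (-0.85 ± 0.11, adjusted p = 0.026) and Mki67 (-0.94 ± 0.14, adjusted p = 0.027). Under control antibody all 20 were higher in tumour-bearing mice (median 0.53) and 8 rose. The 8 cholesterol genes had a median of 0.07 there, with 6 above 0. Under anti-IL-6R all 20 were lower in tumour-bearing than in tumour-free mice (median -0.22), and the 8 cholesterol genes had a median of -0.36. The interaction had a median of -0.76 for the cell cycle genes and -0.39 for the 8 cholesterol genes. In tumour-free mice the antibody difference had a median of 0.06 for each list. Of 15 T cell activation genes 4 fell and 1 rose with anti-IL-6R in tumour-bearing mice (median -0.23). The part of proliferation in the differences of the cholesterol genes was not tested.

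All 10 pan T cell markers were well above background in every group. With anti-IL-6R in tumour-bearing mice all 10 were lower (median -0.27) and none passed the test, and their summed signal, in multiples of the 75th percentile, was 850 to 951 there, 1090 to 1100 in tumour-bearing controls and 909 to 1040 in tumour-free mice. The 9 B cell markers had a median of 0.72 with 1 that rose, and a summed signal of 43.6 to 47.0 against 23.4 to 33.1. The 10 neutrophil markers had a median of -2.01 with 6 that fell (35.5 to 53.2 against 121 to 129), and 10 erythroid markers a median of -1.79 with 6 that fell (11.2 to 16.7 against 30.3 to 66.3). The 6 plasma cell markers had a median of -0.56 with 1 that fell (30.3 to 32.5 against 41.6 to 44.9), and 8 macrophage markers one of 0.59 with 1 that rose (255 to 284 against 182 to 225).

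In the smaller lists, between antibodies in tumour-bearing mice, 6 NK cell markers had a median of 0.33 with 2 that rose. Of the dendritic cell markers 5 of 6 were measured, with a median of 0.33. Of the endothelial markers 3 of 5 were, with 0.17, and 2 cytotoxic T cell markers had 0.26. None of the last 3 lists had a call. In each anti-IL-6R group 1 neutrophil marker, and in each tumour-free group 1 erythroid and 1 plasma cell marker, was well above background on neither array. The part of these cells in the differences of the cholesterol genes was not tested. In such bulk samples fewer cells of a type and less RNA per cell cannot be told apart. All 8 arrays lay on 1 slide, with the antibodies in separate columns and the hosts in separate rows, so slide position and group cannot be told apart.

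**Figure D4:**
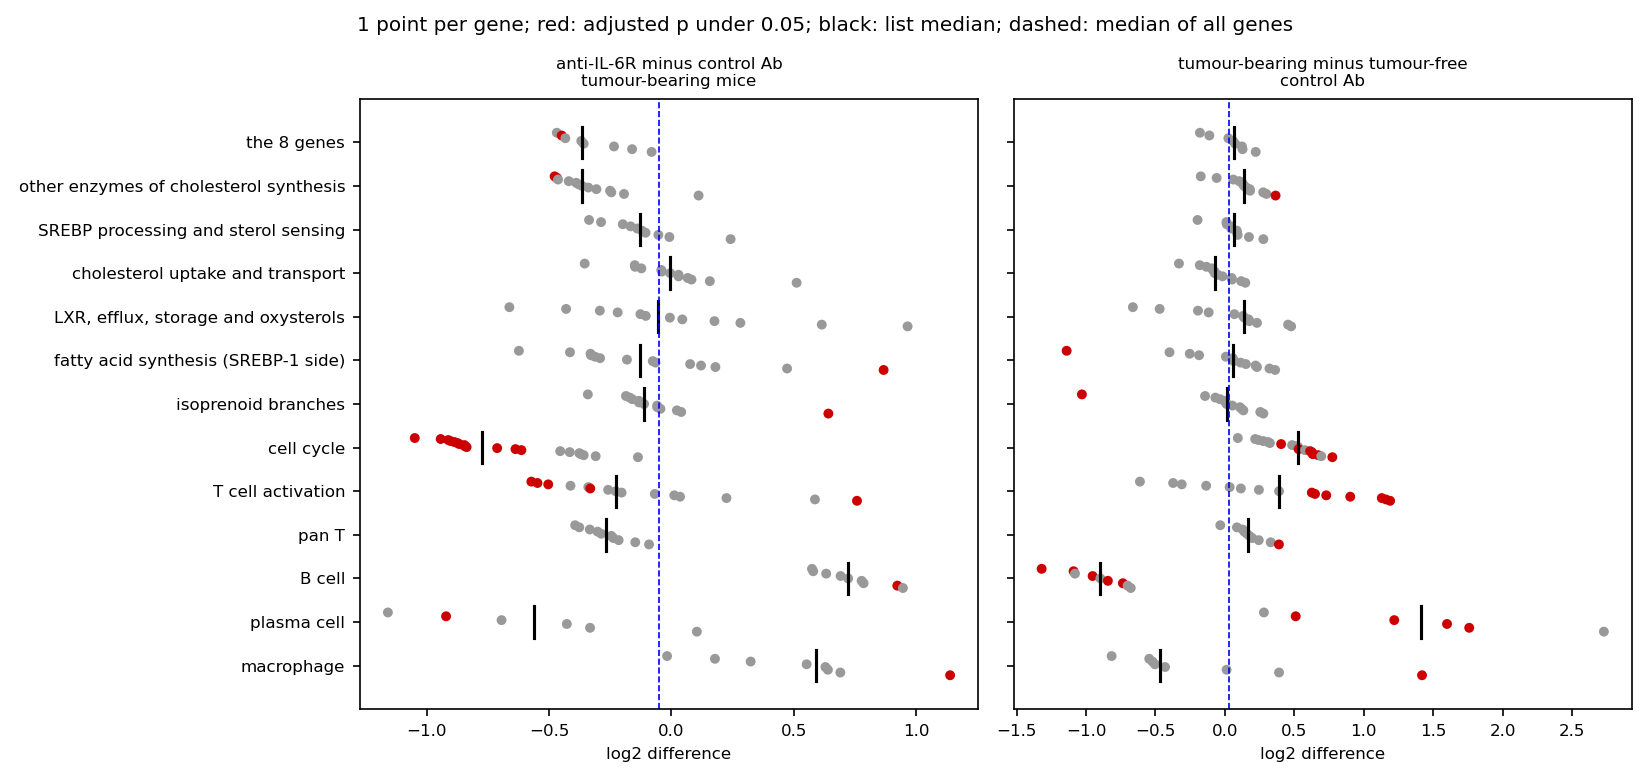
Log2 difference of each measured gene (1 point per gene by its brightest probe; red where the adjusted p is under 0.05) for the 8 genes and 12 other lists (rows), between antibodies in tumour-bearing mice (left) and between hosts under control antibody (right); black bars are list medians and the dashed line is the median of all genes. On the left the 8 genes have a median of -0.36 and the cell cycle list -0.78; on the right they have 0.07 and 0.53.

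How far the 8 genes moved alike was described by the root mean square (RMS) distance of each from their mean profile over the 8 arrays, whose range was 0.43 log2 units. Fdft1 was nearest, at 0.044, then Sqle at 0.074, Hmgcs1 at 0.075, Cyp51 at 0.078, Idi1 at 0.085 and Lss at 0.089. Dhcr7 lay further off, at 0.10, and Insig1 furthest, at 0.20. Among 21914 named probes of other genes, the 5 closest to the mean profile were those of Was (0.035), Tspyl4 (0.036), Map2k6 (0.036), Pms1 (0.040) and Grk6 (0.042). Each lay nearer to the profile than any of the 8 genes did, but they were picked as the smallest of 21914 distances. The 8 genes themselves form the mean profile. The share of all probes as near as each gene was not counted, so these distances do not rank the genes against others.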

How the data were processed

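Per the submitters' processing notes, the authors read the arrays with Agilent Feature Extraction 10.10.1.1. The deposited scanner files hold intensity values per spot, background-subtracted and detrended without dye normalization, per the file headers. The deposited value table holds log2 values; each of its columns equalled the log2 signal of its array minus 1 constant (spread at most 0.000504), within 0.01 of the 75th percentile used here. RNA of 0.1 ug was labelled with Cy3, per the labels' protocols.

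Here outlier spots (60 to 95 per array) were dropped, spots of a probe were averaged, and log2 signals were scaled to each array's 75th percentile (500 to 526). Of 56605 probes, 18 without a usable spot were left out. The 32039 probes tested were those that the scanner software placed well above background on each array of 1 or more groups. limma 3.58.1 in R 4.3.3 (lmFit, eBayes with trend) was fitted to 4 group means over all 8 arrays, two-sided, with Benjamini-Hochberg adjustment and a threshold of 0.05; the averages over antibodies and hosts came from an additive model. The fit was tested on simulated data. A gene in a list is represented by its brightest probe. All probes of the 8 genes are reported, and up to 4 genes with the smallest p per list and comparison are named. Alternatives covered background correction (normexp, offset 50), quantile normalization, median centring, the deposited table, filters, variance model, array weights, the arrays fitted and leaving out each array. The 8 genes, the lists and the motifs were chosen with earlier results of these data known. Some single genes of the lists enter the counts and are not reported here by name. With 2 arrays per group, their number limits the precision of every value.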

Additional observations from a re-analysis of the deposited data

Results flagged for a closer look

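The interaction of host and antibody passed the test for 4 neutrophil granule genes among the markers of other cells, with limma's adjusted p. Camp gave -4.42 (adjusted p = 0.021), Ngp -5.34 (adjusted p = 0.023), Ltf -5.23 (adjusted p = 0.032) and Mpo -2.56 (adjusted p = 0.044). For each of them the antibody difference in tumour-bearing mice lay below that in tumour-free mice. None of the 13 probes of the 8 cholesterol genes passed this test of the interaction, and the part of these cells in their values was not tested. Over all probes 8 passed this test, and the count was 364, 24, 204 and 280 without arrays 1, 4, 6 and 7 and 4 without array 3 or 8. The summed signal of the 10 neutrophil markers was 37.9 and 153 on the 2 arrays of tumour-free mice given anti-IL-6R.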

How the results depend on the processing

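In the antibody comparison in tumour-bearing mice, 1 of the 13 probes passed the test. The count was 2 with normexp background correction, and 0 with quantile normalization, without the filter on dim probes, without the intensity trend and when only the groups compared were fitted. On leaving out 1 array at a time it ranged from 0 to 1. That 1 probe was of Cyp51 without array 1 or 2 and of Fdft1 without array 7, while Sqle was past the threshold in none of these 8 fits. In the other 6 comparisons it was 0 under each alternative run. Over all probes the count of calls in tumour-bearing mice was 1369, and it was 15 without the filter, 56 without the trend, 2072 with normexp, 908 with only the groups compared, and 204, 317 and 24 without arrays 3, 4 and 8.

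Across 18 alternatives the brightest probes of the 8 genes kept the sign of their difference between antibodies in tumour-bearing mice in 143 of 144 values, the exception being Insig1 (0.00 as rounded, with 1 array left out), and in 134 of 144 in tumour-free mice. For tumour-bearing against tumour-free mice it was 135 of 144 under control antibody and 143 under anti-IL-6R. The interaction kept its sign in 136 of 136. Without array 8 the median of the 8 genes in tumour-bearing mice was -0.26, and without array 7 it was -0.46. Fdft1 passed the test under 2 alternatives and so did Cyp51. No paired analysis was possible because the groups share no replicate number. Of the 14 probes 1, for Sqle, was not above background and has no value.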
